A study of Homo sapiens with 32 samples.

Results

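Newly made RNA was compared between 80 and 40 minutes after release from a mitotic block in HUH7, an established cell line from a human hepatoma. The comparison takes the column for 80 minutes against the column for 40 minutes in the authors' table of FPKM, fragments scaled to transcript length and library size. It uses 6 of the 32 samples of the series, 3 at each time. Of 24242 genes, the 18085 with at least 10 FPKM in either column were compared. Both groups had the same handling, in 2 mM thymidine for 24 hours, 2 hours of release and 0.06 µg/mL nocodazole for 16 hours. Rounded cells were then shaken off, washed free of drug and replated for 80 minutes in one group and 40 minutes in the other. New RNA was marked in both with 0.5 mM 5-ethynyl uridine (EU) over 40 minutes, coupled to biotin, captured, depleted of ribosomal RNA and made into stranded libraries. Whether a stated time marks the beginning or the close of the pulse is not stated. The block uses a drug that takes apart microtubules, and no genotype or treatment other than time separates the groups. Although the labels list 3 samples per time, each value is the authors' pooled value for its group. There is therefore no replicate error, no test and no p-value behind any difference below, and "higher" or "lower" means a difference between 1 pooled value and another. Unlabelled cells and spike-in samples were not analysed here, so no background of unlabelled RNA stands beside these levels.

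In mitosis chromosomes condense, most transcription factors and RNA polymerase II leave the DNA, and transcription is low. As cells divide and enter G1, polymerases return and genes resume at different times. EU is a uridine analogue that is built into RNA as it is made, so the captured RNA reports transcription during the pulse, introns included, more than the store of older mRNA.

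In the deposited values the level of labelled RNA was higher at 80 minutes for most genes, and far more genes were at least 2-fold higher than lower. Differences were taken on log2(FPKM + 1), and folds below are ratios of FPKM + 1. Of the 18085 genes, 12544 (69.4%) were above their 40 minute value, 2930 (16.2%) by at least 2-fold, and 422 (2.33%) were at least 2-fold lower. The median difference was 0.32, a 1.25-fold higher level, and the central 90% of genes lay between -0.66 and 1.54. The split rests on the scale. Summed over all transcripts, FPKM came to 1.04e+07 at 80 minutes and 7.60e+06 at 40 minutes, and the authors' values were not scaled to a common sum. Counted relative to the all-gene median, 1457 genes (8.06%) were at least 2-fold higher and 877 (4.85%) at least 2-fold lower, so higher genes made up 62.4% of those apart by 2-fold, against 87.4% as deposited. They were 57.8% after quantile normalization and 48.1% with both columns scaled to the same sum. Under those scalings the median difference was -0.054 and -0.12, so that most genes were then not higher at 80 minutes. Differences are given as deposited, so a list median below 0.32 lies under that of all genes, and those of the main lists are also given relative to it.

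How often a gene was 2-fold higher also went with its level, taken here over the 14338 protein-coding genes compared. Those with a mean of 20 to 50 FPKM over the 2 columns had a median difference of 0.05, and 6.73% of them were at least 2-fold higher. At 200 to 500 FPKM the median was 0.63 and the share 24.3%, and above 1000 FPKM they were 0.42 and 10.3%. Several lists are therefore set beside coding genes of like level as well. Low values in each column repeat in steps. If a step is 1 read, a transcript of 1 kb gains 2.73 FPKM per read at 80 minutes and 3.53 FPKM at 40 minutes. On the same condition the depth at 80 minutes would be 1.30 times that at 40 minutes. The step was the most frequent length-scaled value of microRNA hairpins above 0, held by 20 of 700 at 80 minutes and 20 of 659 at 40 minutes. Some values lie below 1 step, so steps are a rough scale and not counts of reads. Such counting covers sampling of reads alone, and captured fragments are not independent molecules.

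All 10 hepatoma marker genes fixed for these cells were above 10 FPKM in at least 1 column, and they summed to 3018 FPKM at 80 minutes and 2434 FPKM at 40 minutes. HNF4A, a liver transcription factor, stood at 1009 FPKM at 80 minutes and 785 FPKM at 40 minutes. The 14 blood cell markers summed to 310 FPKM at 80 minutes and 299 FPKM at 40 minutes, with HBB and PPBP at 0 at 80 minutes and no marker at 0 at 40 minutes. The 13 stroma and endothelium markers summed to 429 FPKM at 80 minutes and 568 FPKM at 40 minutes, of which LUM alone gave 304 FPKM at 80 minutes and 438 FPKM at 40 minutes, and none was at 0. The 6 stroma and endothelium markers that passed had a median difference of -0.31, below that of every other list. The part of these markers in any difference was not tested. In pooled cultures, fewer cells transcribing a gene and less RNA made per cell cannot be told apart.

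**Figure D1:**
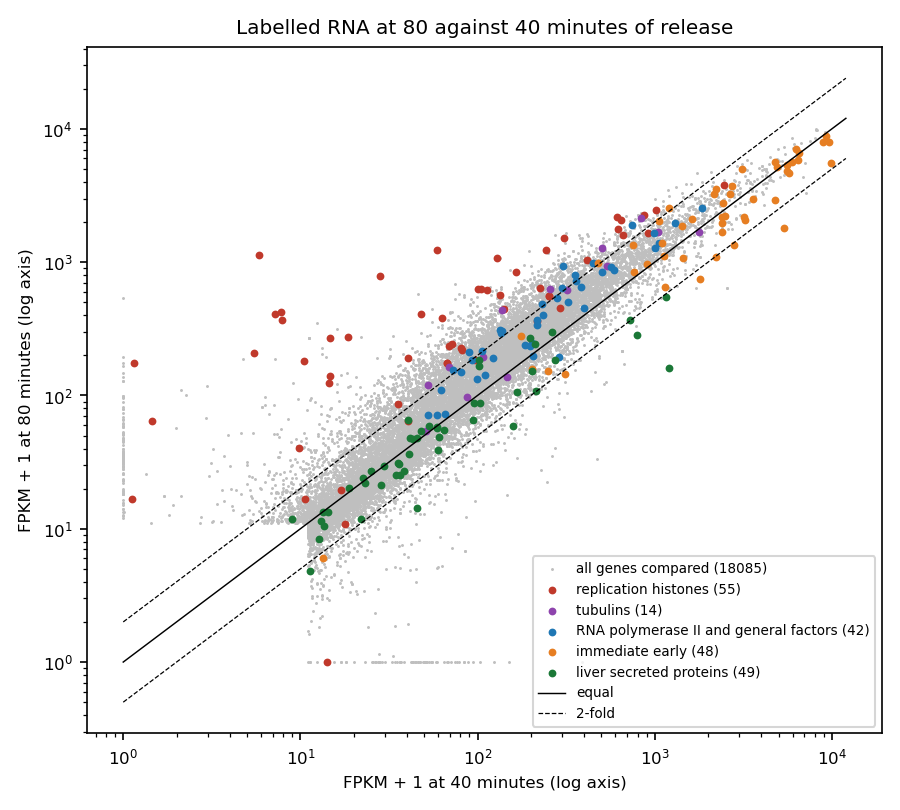
Each point is a gene, placed by its FPKM + 1 at 80 minutes (vertical, log axis) and at 40 minutes (horizontal, log axis), with 5 gene lists in colour, the solid line at equal levels and the dashed lines at 2-fold. Replication histones lie above the upper dashed line in 45 of 55 cases, while 6 immediate early and 6 liver secreted genes lie below the lower one.

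Replication histone genes had the highest median difference of the 34 lists. These genes supply the core and linker histones that package DNA copied in S phase, and their mRNAs end in a stem-loop in place of a poly(A) tail. Of 66 in the table, 55 passed the level filter, and of those 45 were at least 2-fold higher at 80 minutes and 1, H2BC1, was lower. Because 11 of the 55 passed through the 80 minute column alone, the count over all 66 is the fairer one, with 46 at least 2-fold higher (69.7%) and 2 lower. Over those 66 the median difference was 1.58, and over the 55 that passed it was 1.83, or 1.51 relative to the all-gene median. All histone types were represented. At least 2-fold higher were 14 of 14 H4 genes, 9 of 13 H3, 11 of 18 H2B, 8 of 16 H2A and 4 of 5 H1 genes.

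Several histone genes were near the floor at 40 minutes. H1-4, a linker histone, was at 1129.6 FPKM at 80 minutes and 4.80 FPKM at 40 minutes, about 313 steps against 1.0. H2BC4 had 406 FPKM at 80 minutes and 6.16 FPKM at 40 minutes, 85.1 steps against 1.0. H3C2 had 425 FPKM at 80 minutes and 6.77 FPKM at 40 minutes, 64.1 steps against 0.8. With about 1 step behind each 40 minute value, the folds of 195, 56.9 and 54.8 are imprecise, but the 80 minute levels rest on many steps. H2AC4 was at 791 FPKM at 80 minutes, against 27.1 FPKM at 40 minutes, a 28.2-fold difference on 114 steps against 3.0. H1-1 was at 1239 FPKM at 80 minutes, against 58.4 FPKM at 40 minutes, which is 20.9-fold and 295 steps against 10.7. Genes already well above the floor at 40 minutes were higher too. H2BC8 had 1516 FPKM at 80 minutes and 306 FPKM at 40 minutes, a 4.94-fold difference. H4C1 had 1227.5 FPKM at 80 minutes and 242 FPKM at 40 minutes, 5.05-fold apart. H2AC6, with the highest level of the replication histones in both columns, differed less, at 3779.9 FPKM at 80 minutes and 2468 FPKM at 40 minutes, or 1.53-fold.

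For many histone genes the level was lower at later times. Over the 55 genes that passed, the median level was 60.8 FPKM at 0 minutes, 68.4 at 40, 406 at 80, 317 at 105, 149 at 165 and 91.1 at 300 minutes, with 689.6 FPKM in the asynchronous culture. H1-1 had 5.75, 58.4, 1239, 491, 30.0 and 24.8 FPKM over the same times, and stood at 2233 FPKM in asynchronous cells. The median and H1-1 were thus highest of the release at 80 minutes and below asynchronous cells, but members differed. Summed over the 66 genes, the level was 37944.6 FPKM at 105 minutes and 37347.5 FPKM at 80 minutes. H2BC7 was higher at 105 minutes than at 80, at 310 FPKM against 175 FPKM, and H2AC7 had its highest level at 165 minutes, 1617 FPKM. H4C1 stood above asynchronous cells at 80 minutes, at 1227 FPKM against 380 FPKM, as did H2BC4 at 406 FPKM against 182 FPKM. Histone genes are near copies of one another, and how the authors' counting shared reads between them is not given. H3C14 and H3C15 carry the same values, as do H4C14 and H4C15, so members of this family are not separate measurements. The 12 replication-independent histone genes had 3 (25%) at least 2-fold higher at 80 minutes and a median of 0.41, or 0.08 relative to all genes. The share higher was 16.2% for all genes, and 21.1% with a median of 0.62 for coding genes of 500 to 1000 FPKM. H3-3A, which encodes the H3.3 variant, had 2267 FPKM at 80 minutes and 806 FPKM at 40 minutes, and H2AJ had 1059.6 FPKM at 80 minutes and 357 FPKM at 40 minutes.

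The 150 bases before the annotated start of H3C2, H2AC4 and H1-1 are shown as examples of 3 histone types, from the genes with the largest differences that the naming rule picked. H1-4, H2BC4, H2BC7 and H2BC3 differed by more than H1-1 and are not shown, and nothing is read from these sequences for other histone genes. Sequences are from RefSeq (GRCh38.p14), 5′ to 3′ along the gene's strand. Capitals mark the TATA box (TATAAA), the CCAAT box and an ETS factor motif (CCGGAAG), on either strand. H3C2 is the minus strand of chr6:26032100-26032249, H2AC4 the minus strand of chr6:26033619-26033768 and H1-1 the minus strand of chr6:26017788-26017937. Each holds a TATA box just before the start and at least 1 CCAAT box upstream of it, and none holds the ETS motif.
H3C2: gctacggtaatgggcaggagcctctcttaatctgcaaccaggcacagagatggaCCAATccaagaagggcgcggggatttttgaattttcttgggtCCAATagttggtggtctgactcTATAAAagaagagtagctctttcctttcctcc
H2AC4: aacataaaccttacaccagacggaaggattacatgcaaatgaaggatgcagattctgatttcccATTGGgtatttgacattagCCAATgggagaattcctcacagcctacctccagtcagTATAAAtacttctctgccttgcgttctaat
H1-1: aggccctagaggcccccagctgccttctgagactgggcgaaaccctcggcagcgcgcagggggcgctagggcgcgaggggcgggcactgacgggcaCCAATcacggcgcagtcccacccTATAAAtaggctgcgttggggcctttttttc

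Tubulin genes, whose products form microtubules, came next among the lists. All 14 passed the filter in both columns. At 80 minutes 6 of them (42.9%) were at least 2-fold higher and none 2-fold lower, and the median difference was 0.91, or 0.58 relative to all genes. The share was 16.2% for all genes, and 24.3% with a median of 0.63 for coding genes of 200 to 500 FPKM. Relative to the all-gene median, 3 of the 14 were at least 2-fold higher. TUBB, a beta-tubulin, stood at 437 FPKM at 80 minutes and 137 FPKM at 40 minutes, 3.19-fold apart. TUBB2A stood at 2143 FPKM at 80 minutes and 834 FPKM at 40 minutes, and TUBA1B, an alpha-tubulin, at 624 FPKM at 80 minutes and 257 FPKM at 40 minutes. Not every member did so. TUBB6 was at 1691 FPKM at 80 minutes and 1769.7 FPKM at 40 minutes, and TUBA4A at 137 FPKM at 80 minutes and 145 FPKM at 40 minutes.

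Actin cytoskeleton genes did not share that difference, with 1 of 35 (2.86%) higher, 1 (2.86%) lower and a median of 0.21. Of all genes 16.2% were higher and 2.33% lower, so the share lower was near that of all genes. Coding genes of 500 to 1000 FPKM, near the level of this list, had 21.1% higher, 0.37% lower and a median of 0.62. The higher gene of the list, SRF, a transcription factor for actin genes, was at 503 FPKM at 80 minutes and 241 FPKM at 40 minutes. The lower one was ACTG1, cytoplasmic gamma-actin, at 663 FPKM at 80 minutes and 1341 FPKM at 40 minutes. ACTB, the beta form, was at 434 FPKM at 80 minutes and 363 FPKM at 40 minutes. Of 37 adhesion and matrix genes, 34 passed, 1 (2.94%) was higher and the median was 0.21. Coding genes of 200 to 500 FPKM, near the level of that list, had 24.3% and 0.63. The higher adhesion gene was SDC1, a cell surface proteoglycan, with 71.4 FPKM at 80 minutes and 19.3 FPKM at 40 minutes.

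Genes of the transcription machinery had a median difference above that of all genes. All 42 genes for RNA polymerase II subunits and general factors passed, 13 (31.0%) were at least 2-fold higher, none was lower, and the median was 0.75, or 0.43 relative to all genes. Coding genes of 200 to 500 FPKM, near the level of this list, had 24.3% and 0.63. Relative to the all-gene median, 2 of the 42 were at least 2-fold higher, a smaller share than the 8.06% of all genes. TBP, the TATA-binding protein, was at 939.8 FPKM at 80 minutes and 304 FPKM at 40 minutes, 3.09-fold apart. CDK9, the kinase that releases paused polymerase, was at 1893 FPKM at 80 minutes and 739 FPKM at 40 minutes, 2.56-fold apart. TAF12, a subunit of the complex that holds TBP, and GTF2A1, of the general factor TFIIA, were 2.37-fold and 2.31-fold higher.

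Lists for making ribosomes and mitochondria were higher by smaller amounts and lay near the median of genes at their own level. Mitochondrial ribosomal proteins had 16 of 77 (20.8%) at least 2-fold higher and a median of 0.65. Ribosome biogenesis genes had 10 of 49 (20.4%) and 0.63, and respiratory chain genes 9 of 53 (17.0%) and 0.68. These shares were under the 24.3% of coding genes at 200 to 500 FPKM. None of these genes was 2-fold lower. MRPL17 of the mitochondrial ribosome was at 523 FPKM at 80 minutes and 133 FPKM at 40 minutes. POLR1B, a subunit of the polymerase that makes ribosomal RNA, was at 334 FPKM at 80 minutes and 111 FPKM at 40 minutes. COX8A, a subunit of cytochrome c oxidase, was at 192 FPKM at 80 minutes and 69.9 FPKM at 40 minutes. Their medians of 0.63 to 0.68 sit beside 0.63 for all genes of 200 to 500 FPKM. The 79 cytosolic ribosomal protein genes had 6 higher, with RPL13 the largest difference at 1146 FPKM at 80 minutes and 504 FPKM at 40 minutes. Their median of 0.51, 0.18 above all genes, turned to -0.02 relative to all genes once at least 50 FPKM was asked of either column. Translation factors and proteasome subunits had none of 25 and none of 34 at 2-fold, at medians of 0.33 and 0.28. Aminoacyl-tRNA synthetases had 2 of 20 higher at a median of 0.59, and hosts of small nucleolar RNAs none of 20 at 0.46. For splicing factors it was 2 of 48 and 0.53, and for the secretory pathway 1 of 50 and 0.39.

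**Figure D2:**
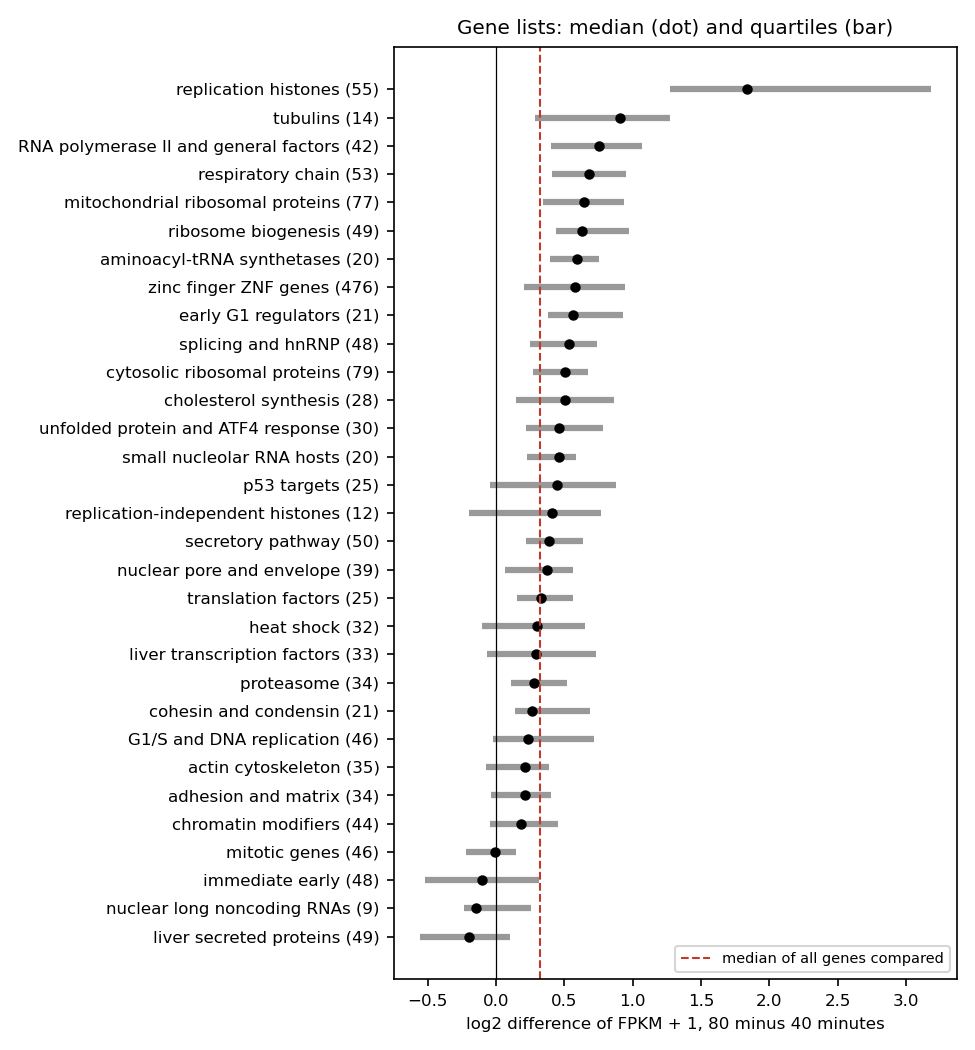
Median (dot) and quartiles (bar) of the log2 difference of FPKM + 1, 80 minus 40 minutes, for each gene list other than the cell type markers, with the number of genes compared in brackets and the all-gene median of 0.32 as the dashed line. Of the lists drawn, replication histones stand highest at 1.83, and liver secreted proteins, nuclear long noncoding RNAs and immediate early genes lie below 0, with mitotic genes next at -0.01.

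CDK9, COX8A and ZNF230 are shown as higher genes whose 150 bases before the start hold the ETS motif CCGGAAG, with capitals as above. CDK9 is the plus strand of chr9:127785884-127786033, COX8A the plus strand of chr11:63974470-63974619 and ZNF230 the plus strand of chr19:44002807-44002956, all in GRCh38.p14. None of the 3 holds TATAAA. The motif reads CTTCCGG where it lies on the other strand.
CDK9: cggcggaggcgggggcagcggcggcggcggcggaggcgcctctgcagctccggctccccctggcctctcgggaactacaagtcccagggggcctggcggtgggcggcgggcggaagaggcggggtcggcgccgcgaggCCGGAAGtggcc
COX8A: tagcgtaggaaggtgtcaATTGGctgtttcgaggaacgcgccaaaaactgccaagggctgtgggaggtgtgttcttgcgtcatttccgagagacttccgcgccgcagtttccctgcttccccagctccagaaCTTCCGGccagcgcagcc
ZNF230: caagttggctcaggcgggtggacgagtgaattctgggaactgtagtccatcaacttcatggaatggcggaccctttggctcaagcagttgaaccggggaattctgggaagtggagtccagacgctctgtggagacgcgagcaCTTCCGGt

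ZNF230 belongs to the zinc finger ZNF genes, most of which encode DNA-binding proteins. Of 514 in the table, 476 passed, and 108 of them (22.7%) were above 2-fold and 1 was below it. The median difference was 0.57, or 0.25 relative to all genes. ZNF230 was at 294 FPKM at 80 minutes and 47.2 FPKM at 40 minutes, a 6.11-fold difference. ZNF221, ZNF174 and ZNF224 were 4.67-fold, 4.50-fold and 3.80-fold higher. The lower gene was ZNF331, at 148 FPKM at 80 minutes and 460.3 FPKM at 40 minutes. The share of 22.7% lies near the 20.3% of coding genes with a mean of 100 to 200 FPKM.

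Some of the largest differences lay outside the lists. Among genes with at least 100 FPKM in both columns, a ranking added after the values were seen, the non-histone genes at the top included ANXA2R-AS1, an antisense RNA, at 1069 FPKM at 80 minutes and 133 FPKM at 40 minutes. WDR5B, a WD-repeat gene, was at 1217 FPKM at 80 minutes and 195 FPKM at 40 minutes. IDH1, the cytosolic isocitrate dehydrogenase, was at 1606 FPKM at 80 minutes and 272 FPKM at 40 minutes, 5.88-fold apart. All 3 were far above the floor in both columns. SAP30, a subunit of a histone deacetylase complex, MEX3B, an RNA-binding protein, PEG10, an imprinted gene derived from a retrotransposon, and SLC40A1, the iron exporter ferroportin, were 5.68-fold, 5.55-fold, 5.25-fold and 5.25-fold higher. The rule for the largest differences at lower levels further named GHET1, a long noncoding RNA, PPP1R35, a centrosomal protein gene, SLC39A2, a zinc transporter, and POU3F2, a neural transcription factor. PPP1R35 had 81.1 FPKM at 80 minutes and 5.04 FPKM at 40 minutes, and POU3F2 had 92.6 FPKM at 80 minutes and 8.72 FPKM at 40 minutes.

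Among families sorted by symbol after the values were seen, HOX genes and divergent transcripts had the largest shares higher. Antisense RNAs (-AS) had 171 of 661 (25.9%) higher, or 18.0% over all 1114 in the table, against 16.2% of all genes compared. Hair keratin-associated and olfactory receptor genes had 6 of 13 and 13 of 33 lower, against 2.33% of all genes. Over all members these 2 had 12 of 50 and 42 of 192 lower, and 7 and 39 higher. HOX genes encode the homeodomain factors of body axis patterning, and 19 of 36 passed the filter. Of these, 15 reached 2-fold upward and none downward, with a median difference of 1.29, but 3 of the 19, HOXA13 among them, passed through the 80 minute column alone. Over all 36, 16 (44.4%) reached 2-fold upward and 2 downward, and the median was 0.92. The 16.2% upward and 0.32 of all genes compared are for genes that passed the filter. HOXA13 was at 76.6 FPKM at 80 minutes and 9.93 FPKM at 40 minutes, and HOXA3 at 602 FPKM at 80 minutes and 225 FPKM at 40 minutes. Genes of a cluster sit side by side, so they share their position, and without stated strand counting reads of overlapping antisense RNAs cannot be told apart from theirs. Transcripts named as divergent (the suffix -DT) start close to a gene and run away from it. Of 190 that passed, 77 (40.5%) reached 2-fold upward, against 16.2% of all genes compared, and none downward, with a median difference of 0.79. Over all 226 in the table, those that failed the filter included, 79 (35.0%) were higher and 3 lower, at a median of 0.64. Their partner genes, 184 of which were compared, had 33 (17.9%) higher and a median of 0.48. Of the 76 higher divergent transcripts with a partner compared, 19 had a partner that was also 2-fold higher.

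Regulators of G1 differed gene by gene. Among 21 early G1 regulators that passed, 5 reached 2-fold upward and none downward, with a median difference of 0.56. That share of 23.8% and that median are close to the 24.3% and 0.63 of coding genes of 200 to 500 FPKM. CDKN2C, an inhibitor of CDK4 and CDK6, was at 634 FPKM at 80 minutes and 134 FPKM at 40 minutes, 4.70-fold apart. MYCN, a MYC family factor, was at 639.8 FPKM at 80 minutes and 161 FPKM at 40 minutes. MAX, the partner of MYC proteins, was 2.57-fold higher and CCND3, cyclin D3, 2.17-fold higher. MYC itself was at 2111 FPKM at 80 minutes and 1620.4 FPKM at 40 minutes, under 2-fold, and reached 4341 FPKM at 165 minutes.

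The genes for S phase were for the most part within 2-fold. Of 46 G1/S and DNA replication genes, 4 (8.70%) reached 2-fold upward, and the list's median difference was 0.23. Both were below all genes, at 16.2% and 0.32, and coding genes of 100 to 200 FPKM, at 20.3% and 0.53. The 4 included UNG, the uracil DNA glycosylase, at 251 FPKM at 80 minutes and 68.7 FPKM at 40 minutes. PCNA, the clamp of DNA polymerase, was also among them, at 925 FPKM at 80 minutes and 314 FPKM at 40 minutes. CCNE2, cyclin E2, was 2.42-fold higher. The 25 p53 targets that passed had 4 higher (16.0%), the share of all genes being 16.2%. Among the 4 was RRM2B, a subunit of ribonucleotide reductase, at 247 FPKM at 80 minutes and 89.8 FPKM at 40 minutes. CDKN1A, the p53 target p21, was at 588 FPKM at 80 minutes and 642 FPKM at 40 minutes. In cholesterol synthesis 5 of 28 were higher (17.9%), also near 16.2%, and the largest difference was that of INSIG2, a brake on the pathway, at 482 FPKM at 80 minutes and 118 FPKM at 40 minutes. Lists of heat shock and of unfolded protein and ATF4 response genes had 3 of 32 (9.38%) and 4 of 30 (13.3%) higher, below the share of all genes. Among the higher were HSF2, a heat shock factor, at 2.34-fold and DNAJB9, a chaperone of the endoplasmic reticulum, at 2.33-fold. The heat shock list also had 1 lower gene, CRYAB, a small chaperone, at 2.43 FPKM at 80 minutes and 21.9 FPKM at 40 minutes. CRYAB passed the filter through the 40 minute column alone. HSPA6, also among the 3 higher heat shock genes, passed through the 80 minute column alone. It was at 46.3 FPKM at 80 minutes and 8.50 FPKM at 40 minutes.

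Mitotic genes, which run spindle, kinetochore and division, stayed close to their 40 minute values. None of 46 was 2-fold apart in either direction. The median difference was -0.01, or -0.33 relative to all genes, while coding genes at 200 to 500 FPKM had a median of 0.63. Relative to the all-gene median, 2 were at least 2-fold lower, CDK1 at -1.09 and UBE2C at -1.03. CCNB1, cyclin B1, was at 701 FPKM at 80 minutes and 691 FPKM at 40 minutes. The widest differences downward were CDK1, the mitotic kinase, at 215 FPKM at 80 minutes and 365 FPKM at 40 minutes, and UBE2C, an enzyme of cyclin destruction, at 188 FPKM at 80 minutes and 307 FPKM at 40 minutes. BUB3, of the spindle checkpoint, was 1.93-fold higher. Chromosome structure genes had medians between those of mitotic genes and of all genes, at 0.26 for cohesin and condensin and 0.18 for chromatin modifiers. Of 21 cohesin and condensin genes none was at 2-fold, and of 44 chromatin modifiers 2 (4.55%) were higher, against 16.2% of all genes. Of 39 nuclear pore and envelope genes, 2 were higher, at a list median of 0.37. Both encode inner nuclear membrane proteins. LBR, the lamin B receptor, was at 335 FPKM at 80 minutes and 142 FPKM at 40 minutes, and TMPO, which encodes LAP2, at 372 FPKM at 80 minutes and 159 FPKM at 40 minutes. The median level of the 46 mitotic genes was 215 FPKM at 0 minutes, 232 at 40, 203 at 80, 133 at 105, 94.3 at 165 and 85.8 at 300 minutes.

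Immediate early genes, which cells transcribe within minutes of a stimulus, were among the lists not higher at 80 minutes in the deposited values. Of 50, 48 passed, and 2 were at least 2-fold higher and 6 (12.5%) lower. Over all 50 the count lower was also 6 (12%). Lower were 2.33% of all genes and 0.92% of coding genes above 1000 FPKM. The median was -0.10, or -0.43 relative to all genes, while coding genes above 1000 FPKM had a median of 0.42. FOS, a subunit of the AP-1 factor, was at 1803 FPKM at 80 minutes and 5363 FPKM at 40 minutes, 2.97-fold lower. NR4A3 and NR4A1, orphan nuclear receptors, were at 742 and 1347 FPKM at 80 minutes, against 1802 and 2799 FPKM at 40 minutes. JUND, an AP-1 partner, and KLF2, a Krüppel-like factor, were 2.03-fold and 2.15-fold lower. EGR4, the sixth, was at 5.06 FPKM at 80 minutes and 12.3 FPKM at 40 minutes, too low for its fold to be precise. It passed the filter through the 40 minute column alone.

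The list was mixed. FOSB was at 5556 FPKM at 80 minutes and 9849 FPKM at 40 minutes, under 2-fold, and EGR1 at 1673 FPKM at 80 minutes and 2384 FPKM at 40 minutes. JUN was at 5164 FPKM at 80 minutes and 4903 FPKM at 40 minutes, and ID2 at 8826 FPKM at 80 minutes and 9210.5 FPKM at 40 minutes, so very high levels persisted. SGK1, a serum-induced kinase, was 2.12-fold higher, at 2564 FPKM at 80 minutes and 1209 FPKM at 40 minutes, and IER5L was 2.05-fold higher. Relative to the all-gene median both were under 2-fold, at 0.76 and 0.71. FOS ran at 3819.5 FPKM at 0 minutes, 5363 at 40, 1803 at 80, 1078 at 105, 455 at 165 and 141 at 300 minutes. SGK1 ran at 785, 1209, 2564, 1951, 896 and 746 FPKM over the same times. One gene was thus highest at 40 minutes and the other at 80 minutes.

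**Figure D3:**
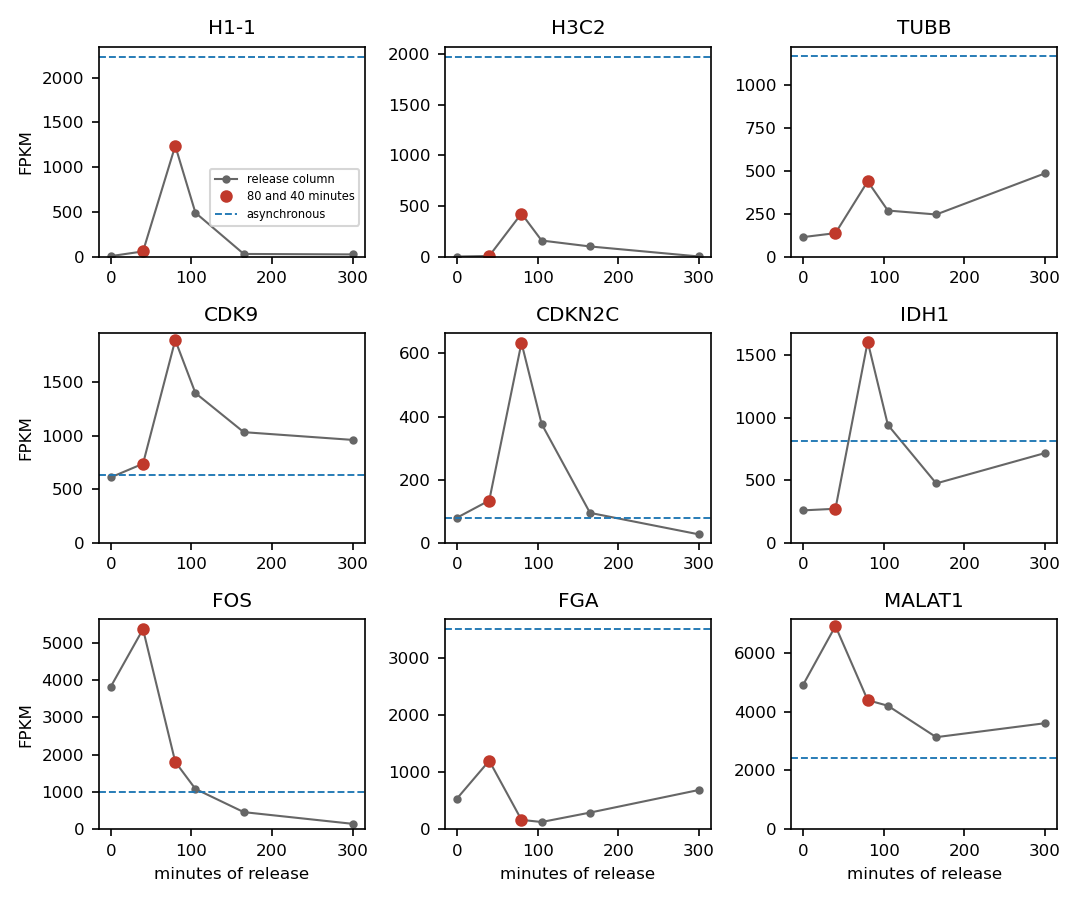
Deposited FPKM (vertical, from 0) by minutes of release (horizontal) for 9 genes, with 80 and 40 minutes in red and the asynchronous level as a dashed line. H1-1, H3C2, CDK9, CDKN2C and IDH1 are highest of the release at 80 minutes, and FOS, FGA and MALAT1 at 40 minutes.

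Genes for liver secreted proteins had low levels in both columns as a group, and the fibrinogen genes, with the highest levels at 40 minutes, were among those lower at 80 minutes. Of 56 in the table, 49 passed, none reached 2-fold upward and 6 (12.2%) did downward, against 2.33% of all genes lower. Coding genes of 20 to 50 FPKM, near the level of this list, had 6.73% higher, 1.56% lower and a median of 0.05. Over all 56 the count lower was also 6 (10.7%), and 3 of the 49, SERPINA3 among them, passed through the 40 minute column alone. The median difference was -0.20, or -0.52 relative to all genes. All 3 fibrinogen chains, which make the clot protein of plasma, were among the 6. FGA was at 161 FPKM at 80 minutes and 1197 FPKM at 40 minutes, 7.39-fold lower. FGG was at 281 FPKM at 80 minutes and 797 FPKM at 40 minutes, and FGB at 547 FPKM at 80 minutes and 1150.4 FPKM at 40 minutes. The 3 genes lie side by side in the genome. FGA then stood at 124, 289 and 685 FPKM at 105, 165 and 300 minutes, and at 3502 FPKM in asynchronous cells. The others were TTR, the thyroxine carrier transthyretin, at 58.0 FPKM at 80 minutes and 158 FPKM at 40 minutes, IGFBP1, an insulin-like growth factor binding protein, at 13.4 FPKM at 80 minutes and 44.3 FPKM at 40 minutes, and SERPINA3, a protease inhibitor, at 3.82 FPKM at 80 minutes and 10.4 FPKM at 40 minutes.

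ALB and AFP, the main plasma proteins of adult and fetal liver, were higher at 80 minutes by less than 2-fold. ALB was at 166 FPKM at 80 minutes and 100.4 FPKM at 40 minutes, and AFP at 182 FPKM at 80 minutes and 101 FPKM at 40 minutes, both far under 2295 and 3964 FPKM in asynchronous cells. Of 33 liver transcription factors, 6 reached 2-fold upward and 1 downward, with a median difference of 0.29. The share higher, 18.2%, was near the 16.2% of all genes. NR2F2 and NR2F1, the COUP-TF nuclear receptors, were at 1514 and 895 FPKM at 80 minutes, against 389 and 228 FPKM at 40 minutes. FOXA1, a pioneer factor of liver genes, was at 1069 FPKM at 80 minutes and 385 FPKM at 40 minutes. The lower one was CEBPD, a C/EBP factor of the acute phase, at 50.6 FPKM at 80 minutes and 184 FPKM at 40 minutes. CEBPA was at 90.3 FPKM at 80 minutes and 67.6 FPKM at 40 minutes.

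FOS and FGA are shown as lower genes, with capitals as above. FOS is the plus strand of chr14:75278678-75278827 and FGA the minus strand of chr4:154590743-154590892 in GRCh38.p14. FOS holds TATAAA and FGA a CCAAT box in these 150 bases, and neither holds the ETS motif.
FOS: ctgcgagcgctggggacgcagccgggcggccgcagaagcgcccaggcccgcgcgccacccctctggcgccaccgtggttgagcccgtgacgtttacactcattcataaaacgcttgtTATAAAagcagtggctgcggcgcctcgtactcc
FGA: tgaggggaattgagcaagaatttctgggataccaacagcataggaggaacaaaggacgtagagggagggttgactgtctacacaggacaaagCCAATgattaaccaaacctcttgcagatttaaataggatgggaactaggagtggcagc

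Several other lower genes were short or shared sequence with relatives. The rule for the largest differences named MIF, a cytokine gene, at 8.06 FPKM at 80 minutes and 76.9 FPKM at 40 minutes. It also named SNAR-A12 and SNAR-A13, small noncoding RNAs of a multicopy family, NACA2, ACTBL2 and RPL23P8, copies of NACA, actin and RPL23, and KRTAP2-2, a hair keratin-associated gene. Reads of copies may be split with or taken from their relatives, so these values are uncertain. PPDPF, at 103 FPKM at 80 minutes and 319 FPKM at 40 minutes, and SLC7A2, an amino acid transporter, at 154 FPKM at 80 minutes and 356 FPKM at 40 minutes, were lower among genes with at least 100 FPKM in both columns. Only 42 of 7317 such genes were 2-fold lower, while 1275 were higher. The 422 lower genes had a median of 8.38 FPKM at 80 minutes and 40.7 FPKM at 40 minutes, and the 2930 higher ones 223 FPKM at 80 minutes and 83.1 FPKM at 40 minutes, so the lower group sat nearer the floor.

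Nuclear long noncoding RNAs had none of the 9 that passed at 2-fold and a median of -0.15, or -0.47 relative to all genes. MALAT1, an abundant RNA of nuclear speckles, was at 4388 FPKM at 80 minutes and 6910.5 FPKM at 40 minutes. NEAT1, of paraspeckles, was at 4343 FPKM at 80 minutes and 5099 FPKM at 40 minutes. OIP5-AS1 went the other way, at 266 FPKM at 80 minutes and 148 FPKM at 40 minutes. For very short RNAs the counts are small. Of 723 microRNA hairpins examined, 225 were at least 2-fold higher with a median of 3.21 steps at 80 minutes and 0.322 at 40 minutes. The 117 lower ones had 0.292 steps at 80 minutes and 1.65 at 40 minutes. The hairpins 2-fold apart in either direction thus rest on few steps, and no single one is reported here.

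Among protein-coding genes the difference was smaller for longer genes. A length in GENCODE release 29 was found for 13855 of 14338 (96.6%). The median was 0.54 for genes of 2 to 5 kb, 0.40 for 20 to 50 kb, 0.15 for 100 to 200 kb and -0.07 for genes over 200 kb. The share at least 2-fold higher was 25.8% at 2 to 5 kb and 1.64% over 200 kb. Genes under 2 kb did not follow that order, with a median of 0.11 and 15.1% of them lower. The order from 5 kb upward also held among genes with at least 100 FPKM in either column, at 0.71 for 5 to 10 kb and 0.10 over 200 kb. Genes over 200 kb had a median level of 38.8 FPKM at 0 minutes, 39.3 at 40, 40.5 at 80, 45.6 at 105, 59.1 at 165 and 62.9 at 300 minutes. Genes 2-fold higher had a median length of 17.3 kb and those 2-fold lower 5.08 kb, against 30.4 kb for all compared.

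**Figure D4:**
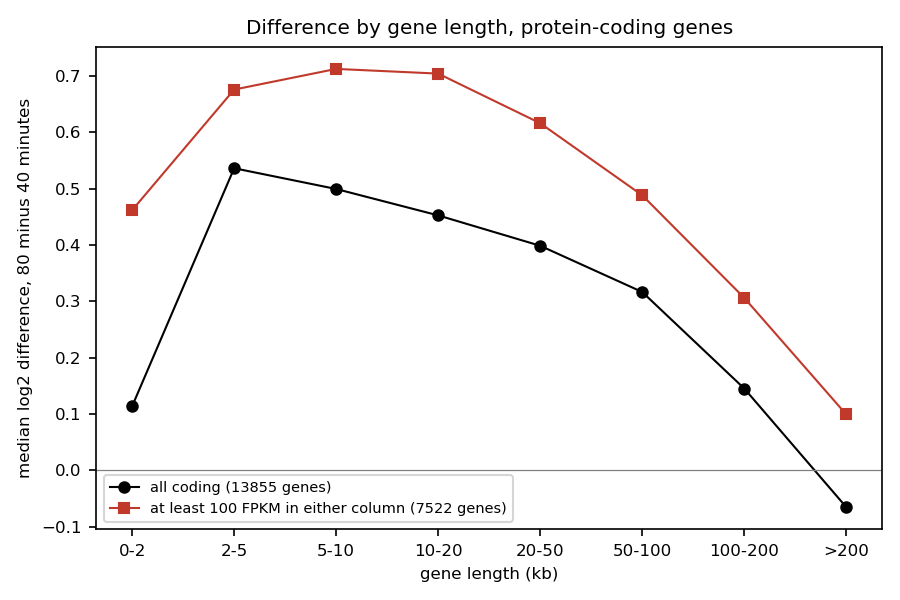
Median log2 difference of FPKM + 1, 80 minus 40 minutes (vertical), by gene length in kb (horizontal), for 13855 protein-coding genes (black) and the 7522 of them with at least 100 FPKM in either column (red). Both lines fall from 10 to over 200 kb, the black one to -0.07.

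Promoter sequence differed between the higher and lower genes. The 250 bases before the start were taken from RefSeq (GRCh38.p14) for 11639 of the 14338 protein-coding genes (81.2%), of which 1772 were at least 2-fold higher and 130 lower. Over all 14338 coding genes the shares were 14.8% higher and 1.23% lower. Each motif was searched on both strands, and 16 motifs were searched in all. The ETS motif CCGGAAG lay in 21.2% of higher and 2.31% of lower genes, against 14.8% of all compared and 8.82% of all 27305 promoters in the table. Genes with it had a median difference of 0.60 and those without 0.31. Among genes with at least 100 FPKM in either column, those medians were 0.70 and 0.56, so the gap was smaller at higher levels. The TATA box TATAAA ran the other way, in 5.25% of higher and 21.5% of lower genes, 6.45% of all compared and 11.1% of all promoters. The replication histones with TATA boxes shown above are among the higher genes with that motif.

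The GC box GGGCGG was in 68.0% of higher, 33.1% of lower and 63.7% of all compared genes, and in 42.3% of all promoters. The E-box CACGTG was in 11.5%, 3.08% and 8.62%, and in 6.49% of all promoters. The AP-1 motif TGANTCA, where N is any base, was in 3.56% of higher, 8.46% of lower and 4.15% of all compared genes, and in 6.60% of all promoters. The TEAD motif GGAATG was in 7.67% of higher, 15.4% of lower and 9.53% of all compared genes, and in 11.9% of all promoters. The C/EBP motif TTGCNNAA was in 6.38%, 10.8% and 6.26%, and in 9.13% of all promoters. The CCAAT box differed little, at 40.0%, 36.9% and 35.2%, and was in 33.0% of all promoters. Restricting to genes with at least 100 FPKM in either column left little of several of these contrasts. The median difference there was 0.60 with and 0.58 without the GC box, 0.52 with and 0.60 without the TATA box, and 0.63 with and 0.59 without the C/EBP motif, the reverse of what its shares show. Base composition moved with these shares too, since the median GC content was 64.8% in higher, 54.8% in lower and 64.0% in all compared promoters, and its part was not tested. The other motifs searched were the CRE TGACGTCA, the YY1 motif AAGATGGCG, the E2F motif TTTNGCGC, the HNF4 motif CAAAGTNCA, and those of NRF1, ZNF143, the CArG box and a palindrome centred on CGCG, and each lay in 2.78% of compared genes or fewer. From 100 FPKM in either column, medians with and without were 0.79 and 0.59 for YY1, 0.76 and 0.59 for NRF1 and 0.76 and 0.59 for ZNF143. These gaps were wider than that of the ETS motif but rest on fewer genes. The CRE and the palindrome went the other way, each at 0.51 with and 0.60 without, and E2F, HNF4 and CArG differed little. A match describes the letters in the window and does not show that a factor binds there.

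**Figure D5:**
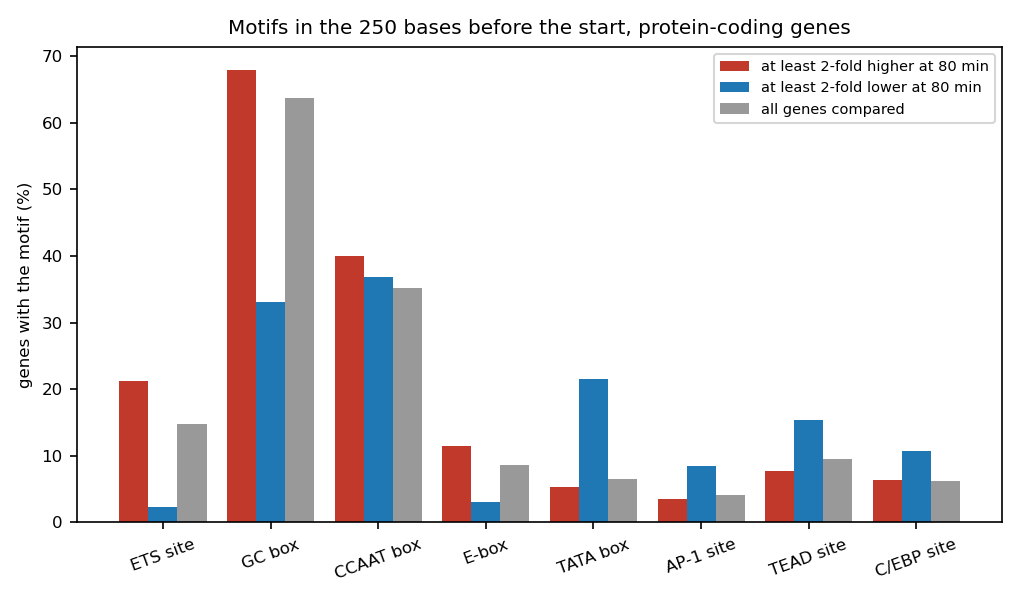
Share of protein-coding genes (vertical, percent, from 0) whose 250 bases before the start hold each motif, for 1772 genes at least 2-fold higher at 80 minutes (red), 130 at least 2-fold lower (blue) and all 11639 compared (grey). ETS motifs, GC boxes and E-boxes are more frequent among higher than lower genes, and TATA boxes, AP-1, TEAD and C/EBP motifs the reverse, but the lower genes sit near the floor.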

How the data were processed

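The authors deposited 1 FPKM value per RefSeq transcript for each of 7 groups, pooled over 3 libraries, per the file headers and labels. Tools listed in the submitters' processing notes are Bowtie2 2.2.9, TopHat, bedtools and bcl2fastq, with the build hg19. What each aligner did, how reads were counted and pooled, the use of strand and any background subtraction: not given in the sources used here. Transcripts (48205) were matched to symbols through a RefSeq table of GRCh38.p14, and 47127 (97.8%) matched. A gene's value was the mean of its transcripts' distinct values. Log2(FPKM + 1) differences, 80 minus 40 minutes, were computed for genes with at least 10 FPKM in either column, and understate low genes. Python 3.11.15, numpy 2.4.6, pandas 2.3.3 and matplotlib 3.10.9 were used, and the counting was tested on simulated data. A test with limma was planned only for values per library, which the table does not hold, so none was run. Lengths (GENCODE release 29) and promoters are of GRCh38, not the authors' hg19, and were joined by symbol.

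Named genes were the 15 largest differences each way where the higher column had 50 FPKM or more and the lower 5 FPKM or more, classes of short or multicopy RNAs left out by the start of their symbol (SNAR genes were not among those classes), up to 4 per list, and 10 set genes, or were chosen after their values were seen (among them further members of the lists, HOX genes and the ranking above 100 FPKM). The 34 lists, the members and the rule were chosen with earlier results of these data known. Alternatives covered the pseudocount, the filter, the transcript value, the scaling, the fold and coding genes alone. One gene is not reported here.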

Additional observations from a re-analysis of the deposited data

How the results depend on the processing

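The counts and the all-gene median depended on the settings. The count of genes at least 2-fold lower was 422 as reported, 245 with a pseudocount of 10, 786 with no filter or a minimum of 1 FPKM, 177 with a minimum of 50 FPKM, 849 after quantile normalization, 877 once the all-gene median was subtracted, 1195 with columns scaled to the same sum, 1102 at a fold of 1.5 and 177 in genes with a coding transcript. The count of higher genes was 2930, against 1457 relative to the median, 1165 after quantile normalization, 1107 with columns scaled to the same sum, 6292 at a fold of 1.5 and 2129 in genes with a coding transcript. The median difference was 0.32, against 0.16 with no filter, 0.18 from 1 FPKM, 0.53 from 50 FPKM, 0 relative to the median by construction, -0.054 after quantile normalization and -0.12 with columns scaled to the same sum. Relative to the all-gene median, replication histones ranged from 1.37 to 1.58 over the settings, and immediate early, mitotic and liver secreted genes were below 0 in each of them. From 50 FPKM the relative medians of cytosolic ribosomal proteins and cholesterol synthesis were -0.02, and those of translation factors, nuclear pore, secretory, p53, unfolded protein, small nucleolar host and replication-independent histone genes were below 0 as well. Of the values of single named genes under the settings, 68 were no longer 2-fold apart, 10 became so, 14 under 2-fold changed sign, 911 were on the same side, and 0 turned a 2-fold difference round. No paired analysis was possible because the columns are pooled and carry no replicate letter. For the same reason no replicate could be left out, and depth limits genes of a few reads.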
